A study of Mus musculus with 2 samples.

Results

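Imprinted fetal growth genes were compared between the incisors of newborn mice with and without a functional *Sox21* gene. The group holds 10 genes, chosen by name from genes known to fall as tissues mature after birth, out of 21244 genes that have a reference symbol and a probe on the array. Every probe other than a control whose name in the array files was that of a member was taken, which gave 24 probes. All 24 probes were well above background on both arrays, so no member was lost to a filter on low signals, and none of their spots was saturated. *Sox21* encodes a transcription factor of the dental epithelium that marks ameloblasts, the cells that lay down enamel. Total RNA of incisors, labelled as age P0 although the study's methods give P1, was read on Agilent SurePrint G3 arrays with a single dye. There was 1 array per genotype, one for wild-type mice, which were C57BL/6J, and one for *Sox21* KO mice, whose strain is not given in the sources used here, so that strain and genotype cannot be told apart. The sources used here do not give the number of animals behind each RNA, so every difference compares a pair of RNA samples, has no replicate check and carries no p-value.

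An imprinted gene is transcribed from only one parental allele, typically because a methylation mark set in the egg or the sperm silences the other. Many such genes control fetal growth: several that are read from the father's allele promote it, and several that are read from the mother's allele hold it back. They lie in clusters that share a control region, and many are highly expressed in the mesenchyme, muscle and cartilage of the fetus and then decline after birth. The probes measure the sum of both alleles, so imprinting itself was not measured.

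*H19* and *Meg3* make long RNAs that are not translated, and each was read by several probes of 60 bases. The sequences are those of the array design, given 5′ to 3′ with mm9 positions, and they are shown because the probes of *H19* differ in their result while those of *Meg3* do not. No base is marked in capitals. The annotation in the files places *H19* on the reverse strand of chromosome 7 as a lincRNA that spans 149761435 to 149764019, and the 6 probes lie within it. Within each gene they are numbered from the brightest to the dimmest.
*H19* probe 1, chr7:149761492-149761551: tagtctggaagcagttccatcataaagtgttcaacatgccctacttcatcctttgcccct
*H19* probe 2, chr7:149761693-149761752: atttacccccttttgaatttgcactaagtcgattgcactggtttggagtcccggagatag
*H19* probe 3, chr7:149761756-149761815: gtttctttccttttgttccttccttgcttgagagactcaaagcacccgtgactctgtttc
*H19* probe 4, chr7:149762173-149762232: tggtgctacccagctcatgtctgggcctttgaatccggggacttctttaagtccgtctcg
*H19* probe 5, chr7:149761957-149762016: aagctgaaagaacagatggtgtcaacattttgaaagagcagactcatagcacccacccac
*H19* probe 6, chr7:149762113-149762172: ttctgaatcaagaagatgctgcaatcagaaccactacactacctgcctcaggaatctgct
*Meg3* probe 1, chr12:110809678-110809737: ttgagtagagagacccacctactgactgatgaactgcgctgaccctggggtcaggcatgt
*Meg3* probe 3, chr12:110799558-110799617: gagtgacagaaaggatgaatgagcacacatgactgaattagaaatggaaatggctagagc

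The 6 *H19* probes do not overlap, and the longest run of bases that any pair of them shares is 7. The *Meg3* probes lie on the forward strand, and probes 1 and 3 start 10120 bases apart. Annotation of the mm9 build was not used here, so the exon or intron that holds each probe is not stated.

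Signals are given as the processed signal of the scanner software divided by the 75th percentile of all spots of its array, which was 268 for wild-type and 276 for *Sox21* KO. The log2 ratio is the log2 of this value in *Sox21* KO minus that in wild-type. Its error is the one that the scanner software assigns to each spot, carried to the ratio, and ranged from 0.20 to 0.25 over the member probes. Among 294 probes printed more than once and well above background on both arrays, the ratio had a median SD of 0.086 between repeat spots. Both errors are technical. A gene with several probes is represented by the brightest, and levels of different probes are not compared with each other. Of all genes on the array, 13805 were well above background on both arrays, and their median log2 ratio was 0.013. Of these, 47.6% were lower in *Sox21* KO, 2.98% were at least 1.5-fold lower and 3.2% at least 1.5-fold higher, while 0.666% were at least 2-fold lower and 0.739% at least 2-fold higher.

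None of the 10 members differed by 1.5-fold in either direction, and none of the 24 probes did. Over all measured genes, 2.98% were at least 1.5-fold lower and 3.2% at least 1.5-fold higher. That none of 10 genes passed is therefore near the background and says nothing of the members. With the arrays scaled to the median of all spots, the dimmer *Dlk1* probe passed 1.5-fold, at a log2 ratio of 0.61. The brighter one fell just short, at 0.58. By their brightest probes, 4 members were lower in *Sox21* KO and 6 were higher, with a median log2 ratio of 0.10, or 0.20 with the arrays scaled to the median of all spots. The 4 of 10 that were lower stand beside 47.6% of all measured genes, a share too near the background to say anything of the members. Over single probes, 8 of 24 were lower, beside 50.1% of all probes measured on both arrays. The largest ratio was that of *Dlk1*, higher in *Sox21* KO, and the lowest was that of *Meg3*, which lies in the same domain. The labels of both samples say incisor, while the design text of the series speaks of ameloblasts as well as whole tooth germs. The study describes dissected incisor tooth germs that held both epithelium and mesenchyme, so the RNA is read here as that of a mixed tissue. Markers of other tissues are given further on. In a mixed tissue, fewer cells of a type and less RNA per cell cannot be told apart.

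**Figure D1:**
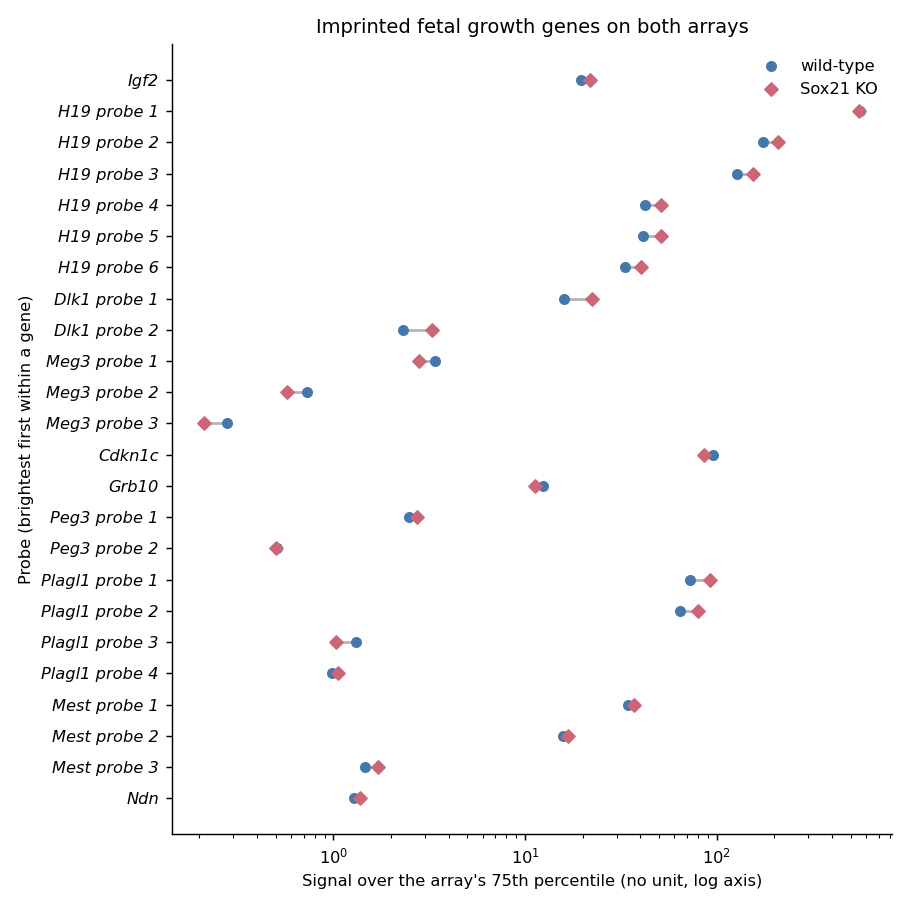
Normalized signal of each member probe on the wild-type array (circles) and the Sox21 KO array (diamonds), on a log axis, with probes ordered from the brightest within each gene. The pair of points lies close together for every probe, the widest gap being that of the *Dlk1* probes.

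*Igf2*, a growth factor of the fetus that is read from the paternal allele, had 1 probe at chr7:149839661-149839720 on the reverse strand. Its normalized signal was 19.5 in wild-type and 21.9 in *Sox21* KO, a log2 ratio of 0.17 ± 0.20 (scanner error). The difference was smaller than the scanner error.

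*H19* shares its enhancers with *Igf2* and is read from the maternal allele. Its probe 1, nearest to the 3′ end, gave 556 in wild-type and 555 in *Sox21* KO, a log2 ratio of -0.0034 ± 0.20 (scanner error). Probe 2 gave 174 in wild-type and 208 in *Sox21* KO. Probe 3 gave 128 and 154 in the same order. Both were thus higher in *Sox21* KO, where the values of the brightest probe nearly coincided. Probe 4 gave 42.2 in wild-type and 51.4 in *Sox21* KO. Probe 5 gave 41.1 and 51.0 in the same order. Probe 6 gave 33.4 and 40.1. The 5 dimmer probes thus agreed closely with each other, with log2 ratios from 0.26 to 0.31, and probe 1 stood apart from them.

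The processed signal of *H19* probe 1 was 148974 in wild-type and 152966 in *Sox21* KO. The highest processed signal of any probe on either array was 428250, and no spot was marked as saturated. Among the 213 probes with a processed signal of at least 100000 on both arrays, the median absolute log2 ratio was 0.058, against 0.16 over all probes measured on both arrays. The part of this brightness in the disagreement between the *H19* probes was not tested. By probe 1 the gene is listed as lower and by the other 5 as higher, so *H19* has no settled direction.

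*Dlk1* encodes a membrane protein of the Notch ligand family that keeps precursor cells from maturing, and is read from the paternal allele. Its brighter probe, at chr12:110698721-110698781, gave 15.9 in wild-type and 22.3 in *Sox21* KO. Its other probe, at chr12:110698502-110698561, gave 2.30 in wild-type and 3.27 in *Sox21* KO. Both probes were higher in *Sox21* KO and their ratios nearly coincided. The log2 ratios were 0.48 ± 0.20 and 0.51 ± 0.20 (scanner error), each more than 2 scanner errors from 0. These were the only member probes that far from 0. Of all measured genes, 9.73% had a log2 ratio at least as far from 0 as that of *Dlk1*.

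*Meg3*, the maternally read non-coding RNA downstream of *Dlk1*, differed in the opposite direction. Probe 1 gave 3.38 in wild-type and 2.80 in *Sox21* KO. Probe 2 gave 0.731 in wild-type and 0.574 in *Sox21* KO. Probe 3 gave 0.279 and 0.213 in the same order. All 3 probes were lower in *Sox21* KO, with log2 ratios of -0.27 ± 0.20, -0.35 ± 0.21 and -0.39 ± 0.25 (scanner error). Of all measured genes, 87.6% had a higher log2 ratio than the brightest *Meg3* probe.

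**Figure D2:**
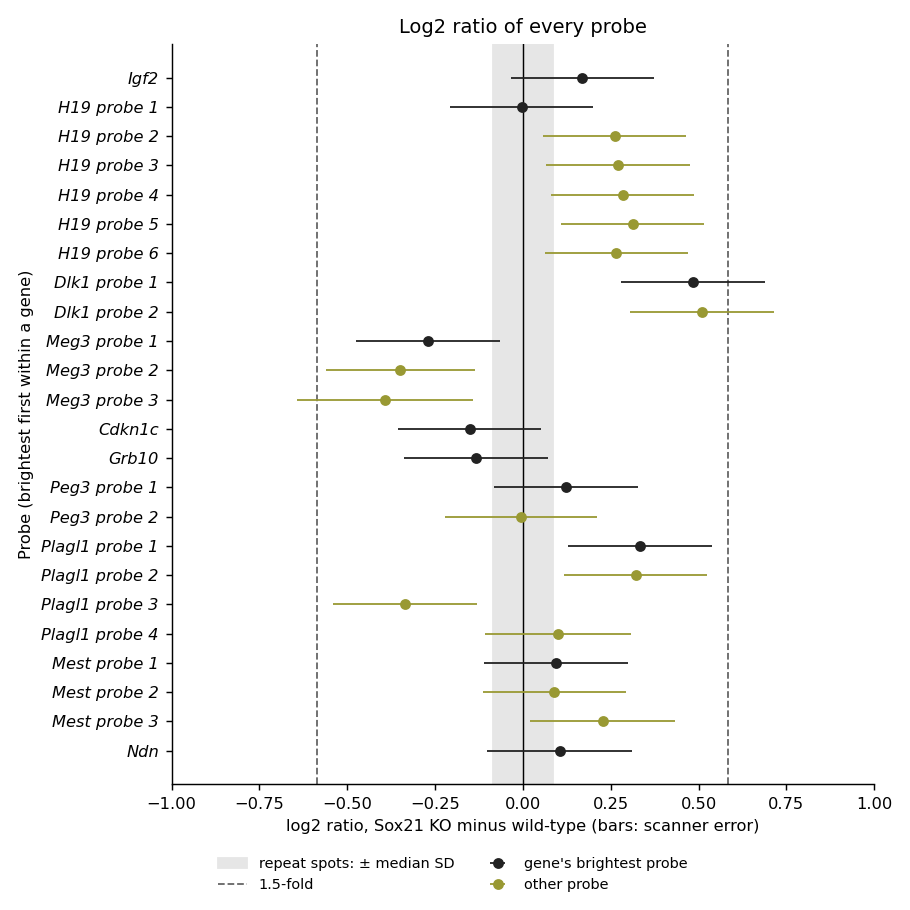
Log2 ratio of each member probe, Sox21 KO minus wild-type, with the scanner error as bars; the grey band is the median SD of 0.086 between repeat spots and the dashed lines mark 1.5-fold. With this scaling no probe reaches a dashed line, the *Dlk1* probes lie nearest to it, and *H19* probe 1 and *Plagl1* probe 3 stand apart from the brighter or dimmer probes of their genes.

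*Cdkn1c*, an inhibitor of cyclin-dependent kinases that limits proliferation, and *Grb10*, an adaptor that restrains insulin and IGF signalling, are growth-restraining genes read from the maternal allele in most tissues. *Cdkn1c*, at chr7:150644753-150644812, gave 95.7 in wild-type and 86.1 in *Sox21* KO, a log2 ratio of -0.15 ± 0.20 (scanner error). *Grb10*, at chr11:11833165-11833224, gave 12.4 in wild-type and 11.3 in *Sox21* KO, a log2 ratio of -0.13 ± 0.20 (scanner error). Each had 1 probe, and both differences were smaller than the scanner error.

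*Plagl1*, a paternally read zinc finger transcription factor that regulates other imprinted genes, had 4 probes that disagreed. Probe 1, at chr10:12850832-12850891, gave 72.7 in wild-type and 91.6 in *Sox21* KO. Probe 2, at chr10:12851280-12851339, gave 64.2 and 80.2 in the same order. These bright probes had log2 ratios of 0.33 and 0.32, but they share a run of 26 bases and are not independent of each other. Probe 3, at chr10:12848421-12848480, gave 1.31 in wild-type and 1.03 in *Sox21* KO, a log2 ratio of -0.34 ± 0.21 (scanner error). Probe 4, at chr10:12848851-12848910, gave 0.985 and 1.06, a log2 ratio of 0.099. The dimmer pair thus lay on either side of 0, and the probe with the opposite sign was 2859 bases upstream of the most 3′ probe. With 0.67 between its lowest and highest log2 ratio, *Plagl1* had the widest spread between probes of any member.

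*Mest*, which encodes a paternally read enzyme of the hydrolase family, had 3 probes, one of them printed at 10 spots of each array. Over these 10 spots, at chr6:30698279-30698338, the normalized signal in wild-type had a lowest value of 33.0, a median of 34.8 and a highest value of 36.3. In *Sox21* KO the lowest was 35.7, the median 37.1 and the highest 38.6. The arrays overlapped at their edges, with 2 of the wild-type spots at or above the lowest KO spot. Paired by position, all 10 spots were higher in *Sox21* KO, with a mean log2 ratio of 0.094 ± 0.039 (SD over the 10 spots of 1 pair of arrays) and a range from 0.025 to 0.16. The spots repeat the same RNA, so their spread is technical. The other probes gave log2 ratios of 0.089 and 0.23, in the same direction.

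**Figure D3:**
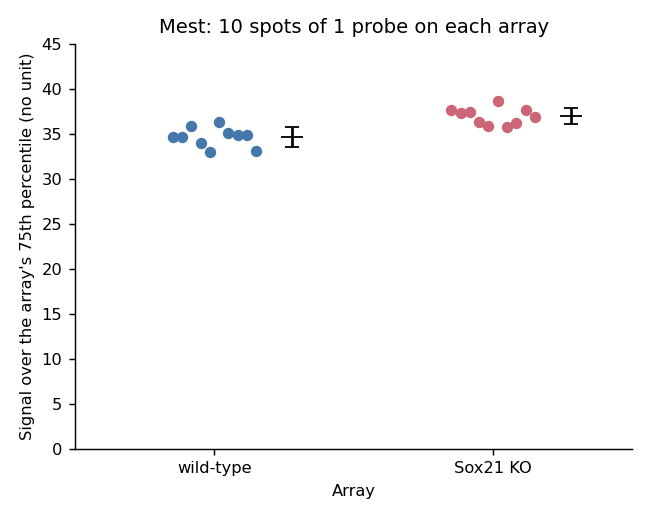
Normalized signal of *Mest* at the 10 spots of its brightest probe on each array, with the mean and SD over spots as bars. The wild-type spots run from 33.0 to 36.3 and the KO spots from 35.7 to 38.6, and the spread is that of repeat spots of 1 RNA, not of animals.

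*Peg3*, a paternally read zinc finger protein, had 2 probes on the reverse strand of chromosome 7. At chr7:6658774-6658833 the signal was 2.50 in wild-type and 2.72 in *Sox21* KO, a log2 ratio of 0.12 ± 0.20 (scanner error). At chr7:6661407-6661466 it was 0.508 and 0.505, a log2 ratio of -0.0065. *Ndn*, a paternally read protein of the MAGE family that limits cell growth, had 1 probe at chr7:69493847-69493906. Its signal was 1.28 in wild-type and 1.38 in *Sox21* KO, a log2 ratio of 0.10 ± 0.21 (scanner error). The differences of both genes were smaller than the scanner error.

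Among the 6 genes with several probes, all probes of 3 (*Dlk1*, *Meg3* and *Mest*) lay on the same side of 0 and those of the other 3 (*H19*, *Peg3* and *Plagl1*) did not. In all, 14 of the 24 probes were further from 0 than their scanner error, 10 of them higher and 4 lower in *Sox21* KO. Of all probes measured on both arrays, 17% were higher and 18.5% lower by more than their scanner error. Of the 10 that were higher, 5 are probes of *H19* and the *Plagl1* pair shares bases, so these counts do not stand for as many genes.

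Sorted by the allele known to be active, all 6 paternally read members were higher in *Sox21* KO, with log2 ratios from 0.094 to 0.48. All 4 maternally read members were lower, from -0.27 to -0.0034. The split depends on the probe and the scaling. *H19* was above 0 by its other 5 probes, and by its brightest probe with the median of all spots (0.093), without scaling (0.038) and with normexp (0.027). Of the paternally read members, *Plagl1* was below 0 by probe 3 and *Peg3* by its dimmer probe. This sorting was made after the values were seen. Among other imprinted genes whose active allele is known in at least some tissues, 6 of 14 measured paternally read genes were higher and 8 lower, with a median log2 ratio of -0.13. Of 12 measured maternally read genes, 7 were higher and 5 lower, with a median of 0.044. The direction seen in the members did not recur in them.

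The *Dlk1*-*Dio3* domain on chromosome 12 was read by 118 probes over 820 kb, from 110698502 to 111518851 in mm9. The paternally read genes *Dlk1* and *Dio3* lie near its ends. Between them are the maternally read RNAs *Meg3*, *Rian* and *Mirg* on the forward strand and the paternally read gene *Rtl1* on the reverse strand. *Dio3*, an enzyme that inactivates thyroid hormone, gave 0.296 in wild-type and 0.479 in *Sox21* KO, a log2 ratio of 0.70 ± 0.22 (scanner error). *Mirg*, a host of microRNAs, gave 1.07 and 0.938, a log2 ratio of -0.19. No probe carried the name *Rian*, and *Rtl1* was not well above background on both arrays. Other forward-strand transcripts between *Meg3* and *Dio3* did not share one direction. Beyond *Meg3* and up to 215 kb from the first *Dlk1* probe, every measured forward-strand probe was lower, lincRNA probes included. Their log2 ratios ran from -0.41 to -0.051, and this stretch was picked after the values were seen. At 236 kb, *B830012L14Rik* gave 0.153 in wild-type and 0.160 in *Sox21* KO, a log2 ratio of 0.069. Probes further on lay on both sides of 0. Counting every forward-strand probe between *Meg3* and *Dio3* that is not a lincRNA probe, *Mirg* and *Dio3* included, 4 of the 7 measured were higher and 3 lower.

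The array also holds lincRNA probes that carry only a position, and those between *Meg3* and *Dio3* were examined after the values of *Meg3* were known. On the forward strand, 17 of 51 such probes were measured on both arrays, against 3 of 37 on the reverse strand. Of the 17, 12 were lower in *Sox21* KO and 5 higher, beside 55.5% lower among all 3982 lincRNA probes measured on both arrays. Their median log2 ratio was -0.052, with a range from -0.88 to 0.85, and that of all measured lincRNA probes was -0.042. The median of the 17 turned to 0.044 with the median of all spots, a scaling that adds the same 0.096 to every probe, and all 51 forward-strand probes together, without the filter on background, had a median of -0.14. The medians were close to each other, and nothing particular to the domain is read from them. Between *Dlk1* and *Meg3*, none of the 8 forward-strand and 5 reverse-strand lincRNA probes was well above background on both arrays.

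**Figure D4:**
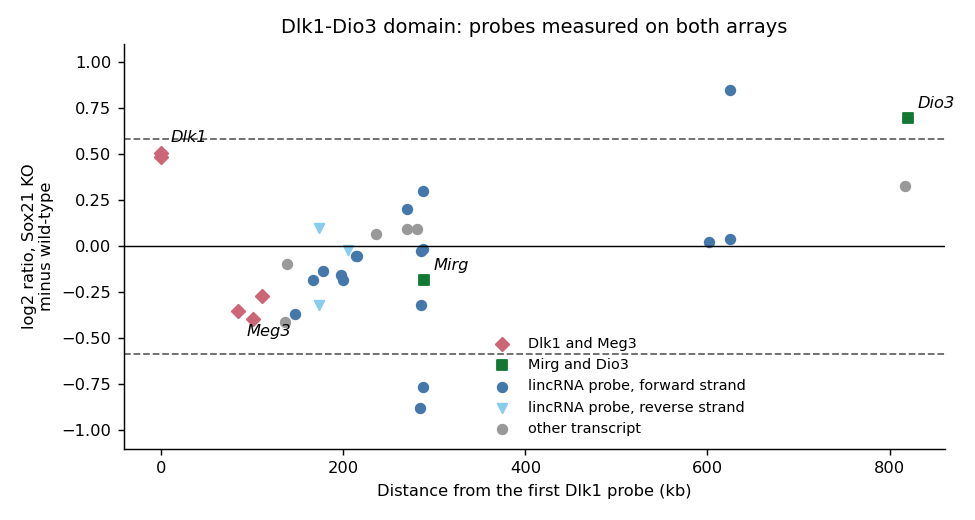
Log2 ratio, Sox21 KO minus wild-type, of the probes measured on both arrays in the *Dlk1*-*Dio3* domain against their distance in kb from the first *Dlk1* probe, with 1.5-fold as dashed lines. *Dlk1* and *Dio3* lie above 0 at the ends, *Meg3* and *Mirg* below it, and the lincRNA probes between them spread on both sides from -0.88 to 0.85.

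The other imprinted genes on the array were compared as a list of 66, of which 60 had a probe and 51 were measured on both arrays. The log2 ratio was above 0 for 27 of the measured genes and below 0 for 24, with a median log2 ratio of 0.029. At least 1.5-fold, 3 were higher and 1 was lower, beside 3.2% and 2.98% of all measured genes. *Ascl2*, a transcription factor that lies near *Igf2* and is needed in the placenta, gave 0.200 in wild-type and 0.540 in *Sox21* KO, a log2 ratio of 1.43 ± 0.26 (scanner error). *Calcr*, the calcitonin receptor, gave 0.478 and 1.23, a log2 ratio of 1.36 ± 0.21 (scanner error). *Dio3* was the remaining gene that was higher. *Magel2*, a neighbour of *Ndn*, gave 0.155 in wild-type and 0.0994 in *Sox21* KO, a log2 ratio of -0.64 ± 0.36 (scanner error). All 4 had signals near or below 1, which is the 75th percentile of the array, and each had 1 probe. *Magel2* no longer passed 1.5-fold with the median of all spots, where *Atp10a* just did and the counts were 4 higher and 0 lower, nor with quantile normalization, normexp or the lowess curve. With normexp *Dio3* did not pass either, at 0.44, while *Ascl2* fell to 0.81 and *Calcr* to 1.01. The neighbours of *Igf2*, *H19* and *Cdkn1c* on chromosome 7 had a median of 0.057 over 11 measured genes, with 6 higher and 5 lower.

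The IGF axis carries the signal of *Igf2* and *Igf1* through receptors, with binding proteins that hold the ligands and proteases that release them. Of its 19 genes, 16 were measured, 15 of them higher and 1 lower in *Sox21* KO, with a median log2 ratio of 0.17. Beside them, 47.6% of all measured genes were lower. Only *Pappa*, a protease that cleaves IGF binding proteins, passed 1.5-fold, with 0.373 in wild-type and 0.617 in *Sox21* KO and a log2 ratio of 0.73 ± 0.22 (scanner error), which was 0.44 with normexp. The list includes *Igf2* itself. Markers of mesenchyme and of epithelium had medians close to that of the IGF axis, at 0.18 with 8 of 10 genes higher and 0.20 with 7 of 10 higher, and their part in it was not tested.

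The ligand *Igf1* had 5 probes, of which the brightest gave 18.6 in wild-type and 20.9 in *Sox21* KO, a log2 ratio of 0.17. Its other probes ran from -0.11 to 0.071, so its direction depends on the probe. The receptor *Igf1r*, which transmits the signal of both ligands, gave 15.2 and 17.1, a log2 ratio of 0.17. *Igf2r*, an imprinted receptor that clears *Igf2* protein, gave 11.6 and 12.3, a log2 ratio of 0.078. The insulin receptor *Insr* gave 0.697 and 0.707 by its brightest probe, a log2 ratio of 0.021, and its other probes gave -0.26 and 0.19. The adaptor *Irs1* gave 7.78 in wild-type and 10.6 in *Sox21* KO, a log2 ratio of 0.45, and its second probe gave 0.52. *Irs2*, the other adaptor, gave 25.7 and 25.5, a log2 ratio of -0.013. All 6 measured binding proteins were higher in *Sox21* KO, with log2 ratios from 0.098 to 0.37, and none passed 1.5-fold.

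The last list held RNA-binding proteins and regulators of transcription and chromatin of the fetal and juvenile growth programme. Of its 10 genes, 9 were measured, 6 higher and 3 lower in *Sox21* KO, with a median log2 ratio of 0.12. None passed 1.5-fold, except *Igf2bp1* with the median of all spots, at 0.59. The values ran from -0.15 for *Mycn*, which drives proliferation, to 0.50 for *Igf2bp1*, which binds *Igf2* mRNA.

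**Figure D5:**
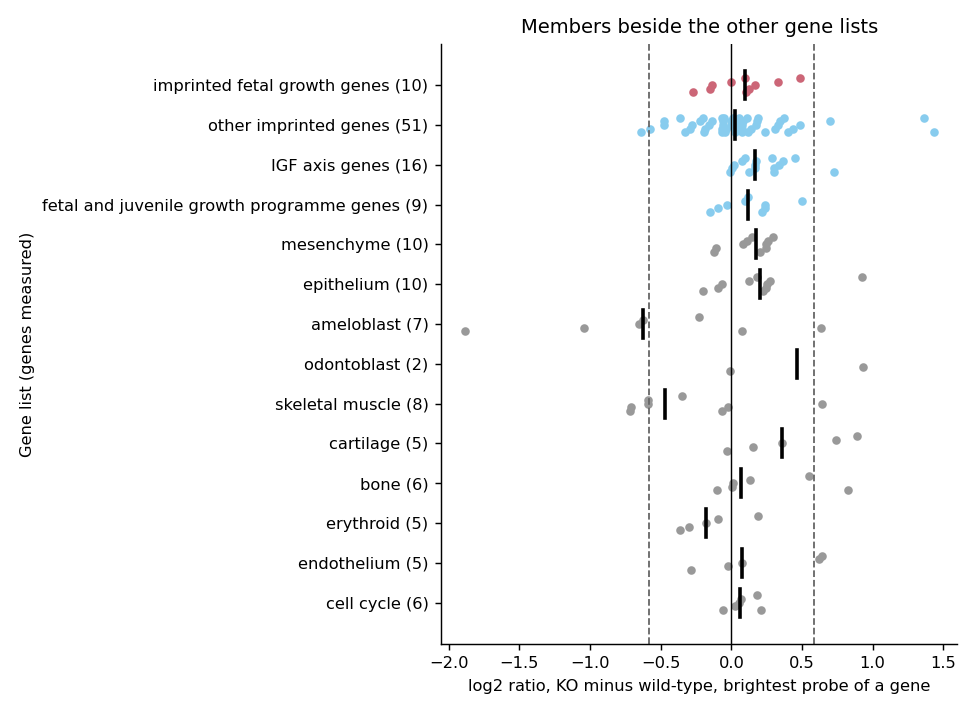
Log2 ratio, Sox21 KO minus wild-type, of each gene measured on both arrays by list, with the median of the list as a black line, 1.5-fold as dashed lines and the number of genes measured in brackets. The 10 members lie between -0.27 and 0.48, inside both dashed lines, while the ameloblast and skeletal muscle markers have medians of -0.62 and -0.47.

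*Sox21*, the targeted gene, was 2.13-fold lower in *Sox21* KO by its brighter probe and 2.85-fold lower by the other, and both remained well above background. Whether these probes lie in the deleted part is not stated in the sources used here. The labelled tissue was matched by its markers: all 7 ameloblast genes and both odontoblast genes were measured on both arrays. Ameloblast genes had a median log2 ratio of -0.62, from -1.89 for *Amtn* to 0.63 for *Odam*, and of the odontoblast markers, read in the same incisor RNA, *Dmp1* gave 0.93 and *Dspp* -0.0085.

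The members are known from mesenchyme, muscle and cartilage, so markers of these tissues are given beside them. All 10 mesenchyme genes were measured, 8 higher and 2 lower, with a median log2 ratio of 0.18, from -0.12 for *Col3a1* to 0.29 for *Vim*. Their summed normalized signal was 1651 in wild-type and 1851 in *Sox21* KO, of which *Col1a2* gave 815 and 973. Such sums add signals of different probes and are weighted to the brightest. Of 10 skeletal muscle genes, 8 were measured, 1 higher and 7 lower, with a median of -0.47, from -0.71 for *Ckm* to 0.64 for *Myh3*. The sum was 69.3 in wild-type and 50.1 in *Sox21* KO, of which *Tnnc2* gave 36.6 and 24.3. Of 6 cartilage genes, 5 were measured, 4 higher and 1 lower, with a median of 0.36, from -0.031 for *Col9a1* to 0.89 for *Comp*, and the sum was 13.9 in wild-type and 21.8 in *Sox21* KO. The muscle markers *Mylpf* and *Myod1* and the cartilage marker *Matn1* were not well above background on both arrays.

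Epithelial genes had a median of 0.20, from -0.20 for *Itgb4* to 0.92 for *Krt18*. Bone genes had a median of 0.069, from -0.098 for *Runx2* to 0.82 for *Spp1*. Erythroid genes had a median of -0.18, from -0.36 for *Hba-a1* to 0.19 for *Ahsp*. Endothelial genes had a median of 0.074, from -0.29 for *Emcn* to 0.64 for *Tek*. Cell cycle genes had a median of 0.063, from -0.062 for *Cdk1* to 0.21 for *Top2a*. The part of the tissue mixture in the member values was not tested.

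Promoters of the members were read from RefSeq windows of GRCm38.p6, each of 300 bases around a start site, which held 15 windows for 8 of the 10 genes. *H19* and *Cdkn1c* had no window. A pair of *Mest* windows overlap almost fully, so the 15 are not all distinct sequences. The SOX core motif, searched as ACAATG or ACAAAG on both strands, was present in 1 of the 15 windows, one of *Igf2*, against 28.6% of 32851 windows in all. The motif GGGGCCCC, bound by the *Plagl1* protein, was present in 1 window, that of *Peg3*, against 1.08% of all windows. The member windows held a median of 13 CpG, against 7 over all windows. These matches describe the letters in the windows and show no binding.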

How the data were processed

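Incisor RNA was measured on 2 Agilent one-colour arrays, 1 per genotype. The files that the authors deposited hold the intensity of every spot, raw and background-corrected, with its error, as written by Feature Extraction 10.7.3.1 (named in the submitters' processing notes). The authors also deposited these signals as a linear ratio to 1 number per array, at the 75th percentile. Here the background-corrected (processed) signals were scaled to that percentile over all spots, 267 outlier spots were left out, and log2 values were averaged over the spots of a probe. A gene took its brightest probe well above background on both arrays. Names came from RefSeq (GRCm38.p6), by accession for 26298 of 55679 probes, by symbol for 2044 and by an older symbol for 355. The other 26982 probes had no RefSeq name and were left out of the counts over all genes. Only the listed gene *Ahsp* kept its file name, for use in its list. Coordinates are those of the files (mm9). The sequence and position of *Meg3* probe 2 are not reported here.

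Members and lists were chosen with earlier results of these data known. Named genes were every member, other listed genes at least 1.5-fold apart, IGF ligands and receptors, *Sox21*, and the highest and lowest marker of each list. *Mirg*, *B830012L14Rik*, *Atp10a*, *Irs1*, *Irs2*, *Igf2bp1*, *Mycn*, *Col1a2*, *Tnnc2* and *Col2a1*, and genes not measured, were named after their values were seen. With 1 array per genotype there was no test. The steps were tested on simulated data. Alternatives changed the scaling, background correction, filter, probe, fold and values. The lowess setting, the lincRNA probes of the *Dlk1*-*Dio3* domain and the sorting by active allele were added after seeing the data. Python 3.11.15, numpy 2.4.6, pandas 2.3.3, statsmodels 0.14.6, matplotlib 3.10.9, R 4.3.3 and limma 3.58.1 were used.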

Additional observations from a re-analysis of the deposited data

How the results depend on the processing

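No paired analysis was possible because each genotype has 1 array. Under every alternative run, 0 members were at least 1.5-fold lower and 0 at least 1.5-fold higher in *Sox21* KO, and 3 or 4 of 10 were lower. Scaled to the 75th percentile, 2.98% of all measured genes were at least 1.5-fold lower, 3.2% at least 1.5-fold higher and 47.6% lower. Over probes, 1 of 24, a *Dlk1* probe, passed 1.5-fold with the median of all spots, and 0 under the other scalings and corrections. Of the other imprinted genes, between 2 and 4 were at least 1.5-fold higher and between 0 and 5 lower, the 5 with the dimmest probe of each gene. With the median of all spots in place of the 75th percentile, every log2 ratio was 0.096 higher. The medians then were 0.20 for the members, 0.12 for the other imprinted genes, 0.27 for the IGF axis, 0.22 for the fetal and juvenile growth programme and 0.044 for the forward-strand lincRNA probes between *Meg3* and *Dio3*. Those lincRNA probes had a median of -0.14 without the requirement of a signal well above background. The other alternatives moved these medians by less than the 0.086 between repeat spots. Under that scaling 672 genes were at least 1.5-fold higher and 278 lower, against 442 and 412, and 30.7% of genes were below 0. Among 100 member values under alternatives, 6 had the other sign, of which 5 were those of *H19* and 1 that of *Peg3*, with its dimmest probe. The other 8 members had no change of sign. Member signals below 1 carry the largest scanner errors, and the 1 array per genotype limits the precision of all values. The normexp setting with an offset of 50 left 172 genes at least 1.5-fold higher and 212 lower, no filter on dim probes gave 1298 and 1460, and the cause was not tested.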
